A study of Bos taurus with 138 samples.

Results

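Blastocyst mRNAs that sedimented with polysomes, the heavy fractions F8 to F10 of a sucrose gradient, were compared with those that sedimented with monosomes, the light fractions F3 to F5. Members were taken by their labels: the libraries of F3 to F10 from blastocyst gradients A and B, 16 of the 138 libraries of the series. Of these, 6 were heavy, 6 were light, and the 4 libraries of F6 and F7 served only to draw the profile of a gene between both ends. Within each gradient the counts of the 3 heavy fractions were summed, and so were those of the 3 light fractions, which gave 4 blastocyst pools (n = 2 gradients). The blastocysts were bovine embryos produced in vitro, from oocytes of slaughterhouse ovaries that were matured and then fertilized with semen of a single Holstein bull, and each gradient held a lysate of many whole embryos, so trophectoderm and inner cell mass were not separated. Oocytes and embryos of every stage were lysed with detergent in the presence of cycloheximide, which holds ribosomes on mRNA. The same pools from GV oocytes, in vitro matured MII oocytes, 2-cell embryos, 8-cell embryos and morulae, 60 libraries in 10 gradients, were used to estimate the spread between gradients and to ask where the blastocyst differed.

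An mRNA that carries several ribosomes at a time sediments deep into a sucrose gradient, and an mRNA with a single ribosome or with ribosomal subunits stays near the top. Position in the gradient is therefore used as a measure of how heavily an mRNA is loaded, although other large particles that hold RNA sediment as well. Mitochondria have their own genome, whose few mRNAs are translated by mitochondrial ribosomes inside the organelle, whereas all other proteins of the blastocyst are made by cytosolic ribosomes. At the blastocyst stage the embryo lives on its own transcripts, most maternal mRNAs have been cleared, and the outer trophectoderm forms an epithelium that pumps fluid into a cavity. Each fraction was amplified and sequenced as a library of its own, so a level is given as CPM, a gene's counts scaled to the library's total, relative to the other mRNAs of that library or pool, and does not give the amount of RNA in a fraction. The ratio of heavy to light reported here is the ratio of such levels. A ratio above 1 can reflect a rise of the gene in the heavy pool or a fall of other genes there.

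The labelled stage was checked against marker genes. Summed over 6 trophectoderm markers (CDX2, GATA3, TFAP2A, TFAP2C, KRT8 and KRT18), the 16 blastocyst libraries held 2687 to 18684 CPM, and GV oocyte libraries held 32.2 to 85.1 CPM. The epiblast markers POU5F1 and NANOG summed to 137 to 1162 CPM in blastocyst libraries. The 4 hypoblast markers GATA4, GATA6, SOX17 and PDGFRA summed to 59.2 to 169 CPM there. Morula libraries overlapped these ranges, at 431 to 4939 CPM (trophectoderm), 207 to 2649 CPM (epiblast) and 74.4 to 626 CPM (hypoblast). Mean levels rose from morulae to blastocysts for KRT8 (771 to 3137 CPM), KRT18 (561 to 3663 CPM) and GATA3 (12.3 to 73.3 CPM). They did not rise for CDX2 (23.7 and 19.97 CPM) or TFAP2C (164 and 163 CPM). The epiblast and hypoblast sums did not set blastocysts apart from morulae. The 8 oocyte markers summed to 75.3 to 433 CPM in blastocysts, against 8926 to 26819 CPM in GV oocytes. Libraries of the blastocyst held between 4572078 and 10835138 counts. The light libraries were the shallower ones, at 4572078 to 6404995 counts against 9350529 to 10835138 counts in the heavy ones, so depth moved with the comparison. With every heavy and light library thinned to 2363749 counts, 82 genes were called toward heavy and 95 toward light, against 95 and 100 below. Of the 95 and 100 genes called below, 68 and 76 were also called after thinning. Whole embryos were lysed, and between stages a change in the number of cells of a type cannot be told apart from a change in RNA per cell.

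Most mitochondrially encoded mRNAs, 8 of 13 mRNAs of oocyte proteins and the mRNAs of both ferritin subunits were higher in the light fractions. Genes higher in the heavy fractions included MTMR14, a phosphoinositide phosphatase, GPKOW, a spliceosome-associated protein, PREB, which starts the assembly of COPII transport vesicles, and KRT19, a keratin of the trophectoderm. In a quasi-likelihood test of edgeR over all 24 pools, with the gradient as a block and Benjamini-Hochberg adjustment over 14873 genes, 95 genes were higher in the heavy pools (0.639% of the genes tested) and 100 were higher in the light pools (0.672%). A gene is called here when its adjusted p was under 0.05. The smallest change among called genes was a log2 ratio of 1.56 toward heavy and -1.51 toward light in this test. The standard error of a log2 ratio was derived from the test, as the absolute ratio divided by the square root of the F statistic. Its median was 0.73 over genes at a mean of 10 CPM or more and 0.46 over genes at 100 CPM or more.

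The calls rest on a spread that blastocysts share with the other stages. With the 4 blastocyst pools alone, 12 genes were higher in heavy pools (0.108% of 11156 tested) and 27 in light pools (0.242%), of which 6 and 23 were among the genes called above. With the 8-cell, morula and blastocyst pools alone, 11 and 23 genes were called (0.0801% and 0.168% of 13728 tested). The biological coefficient of variation between gradients was 0.82 in blastocysts, 0.94 in morulae and 1.03 in 8-cell embryos, and 0.42 to 0.51 in GV oocytes, MII oocytes and 2-cell embryos. Without TMM scaling the split of calls was 174 to 95 in place of 95 to 100, and the median log2 ratio of all genes tested moved from 0.10 to 0.29.

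Called genes of low level were mostly present in the pools of only a single side. Of the 95 genes called toward heavy, 50 were under 10 CPM, and 34 of those had no count in either light pool. Of the 100 called toward light, 39 were under 10 CPM, and 22 of those had no count in either heavy pool. At 10 CPM or more, 45 genes were called toward heavy and 61 toward light, and both gradients moved the same way for 45 and 59 of them. The calls were made from these same gradients, so their agreement among called genes is not a separate check. Over all 7155 genes at 10 CPM or more, the log2 ratio of gradient A and that of gradient B had the same sign for 63.9% of genes. Pearson's r across these genes was 0.34, which rose to 0.68 over the 1851 genes at 100 CPM or more (genes are not independent replicates).

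**Figure D1:**
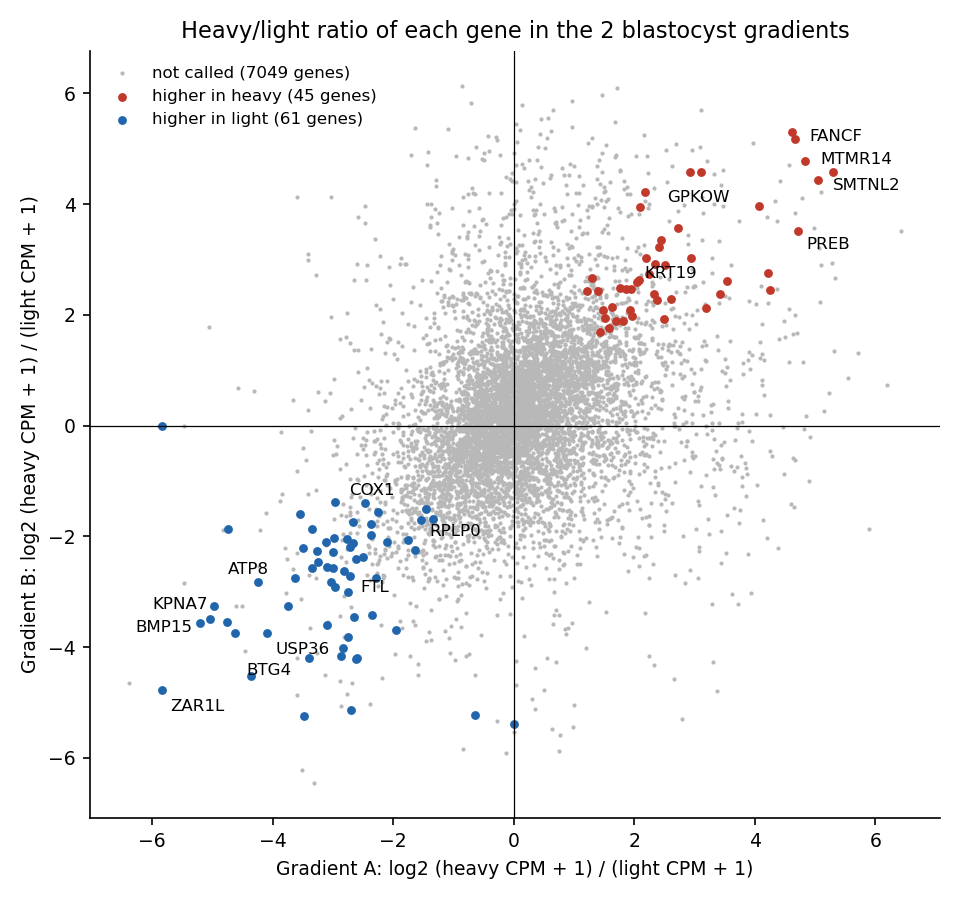
Each point is a gene at a mean of 10 CPM or more over the 4 blastocyst pools. The x axis is the log2 of (heavy CPM + 1)/(light CPM + 1) in gradient A and the y axis the same in gradient B. The 45 genes called toward heavy (red) and the 61 called toward light (blue) lie away from the centre, most of them along the diagonal. The call uses both gradients and so favours that position.

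Genes that were called in all 3 fits, with all stages, with the later 3 stages and with blastocysts alone, numbered 13, and they are named here after their values were seen. Those higher in light pools were ZAR1L, KPNA7, USP36, TET3, NLRP8, FTL and the mitochondrially encoded ATP8, ATP6, COX3, CYTB and ND1. The 2 higher in heavy pools were MTMR14 and GPKOW. USP36, a deubiquitinase of the nucleolus, was at 377 and 517 CPM in the light pools of gradients A and B and at 21.2 and 37.7 CPM in the heavy pools. Its log2 ratio was -3.96 ± 0.34 (SE of the fit of all stages, n = 2 blastocyst gradients, adjusted p = 0.00121). TET3, the enzyme that oxidizes 5-methylcytosine in the zygote, was at 102 and 133 CPM in light pools and at 6.69 and 13.0 CPM in heavy pools (log2 ratio -3.64 ± 0.55, adjusted p = 0.0158). In both genes every light library lay above every heavy library, an order that 1.17% of genes at 1 CPM or more showed.

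All 13 mRNAs of the mitochondrial genome were higher in the light pool of both gradients, and 12 of them were called. Of all genes at 1 CPM or more, 25% were higher in the light pool of both gradients. COX3, a subunit of cytochrome c oxidase, was at 97132 and 82920 CPM in the light pools of gradients A and B and at 10158 and 17254 CPM in the heavy pools. Its log2 ratio was -2.76 ± 0.35 (adjusted p = 0.00743). ATP8, a small subunit of ATP synthase, was at 1231 and 1578 CPM in light pools and at 98.6 and 234 CPM in heavy pools, a log2 ratio of -3.20 ± 0.42 (adjusted p = 0.00743). The smallest change among the 13 was that of COX1 (log2 ratio -1.90 ± 0.36, adjusted p = 0.0377). ND6 had a log2 ratio of -2.27 ± 0.53 and an adjusted p of 0.0723, and was not called. The list's median log2 ratio was -2.64, against 0.23 over the 11171 genes at 1 CPM or more, of which 0.859% were called toward light.

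The number of mitochondrially encoded mRNAs called depended on the gradients in the fit, while their direction did not. With blastocyst pools alone 12 of the 13 were called, and with the later 3 stages 5 were. Without the gradient as a block 3 were called, without blastocyst gradient A 2 and without gradient B 4. Leaving out F10 left 6 called and leaving out F8 left 8. The median log2 ratio of the 13 lay between -2.98 and -2.18 under all 20 alternatives of the pooled comparison.

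In the single libraries, mitochondrially encoded mRNAs took 29.3% of the counts in F3 of gradient A and 24.6% in F3 of gradient B. Their share fell to 12.1% and 7.14% in F6 and to 2.72% and 4.66% in F10. In gradient B the fall was not even, with 8.30% in F7, 3.48% in F8 and 7.61% in F9, and in gradient A the share was 4.36% in F7 and 4.55% in F8. The cytosolic ribosomal protein mRNAs, shown beside them, took 9.28% and 10.9% of the counts in F3 and 10.4% and 12.6% in F10, with their highest shares in F7 of gradient A (12.5%) and in F6 of gradient B (17.3%). The number called, 12 of 13, was the same with DESeq2's size factors and with library totals without TMM.

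**Figure D2:**
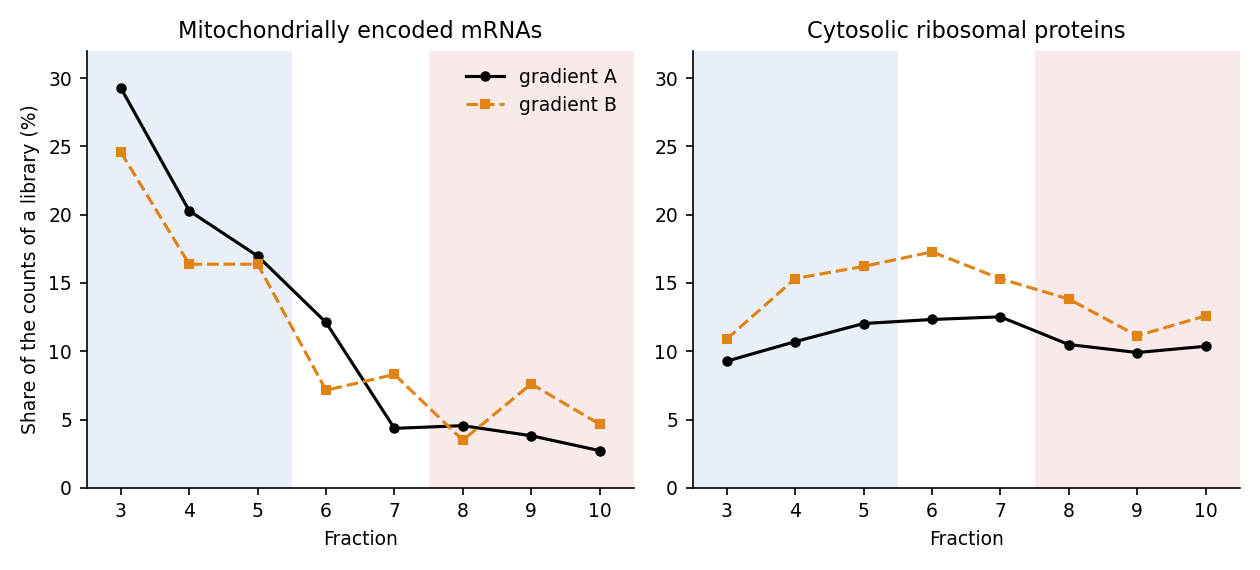
Share of the counts of each blastocyst library, in percent, over fractions F3 to F10 of gradients A (circles, solid line) and B (squares, dashed line); blue and red shading mark the light and heavy fractions. Mitochondrially encoded mRNAs fell from 29.3% and 24.6% in F3 to 2.72% and 4.66% in F10, while cytosolic ribosomal protein mRNAs stayed between 9.28% and 17.3%.

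The same mitochondrial mRNAs lay on the opposite side of the gradient in oocytes. Their median log2 ratio of heavy to light, on the log2(CPM + 1) scale, was 2.62 in gradient A and 2.35 in gradient B of GV oocytes. The same medians were 1.96 and 1.41 at the MII stage and 2.90 and 2.24 at the 2-cell stage, and in those 6 gradients none of the 13 was higher in the light pool. In 8-cell embryos the medians were 0.14 and 1.11, with 6 and 4 of the 13 higher in the light pool. In morulae they were -2.20 and -2.24, and in blastocysts -2.98 and -2.22. The blastocyst ratio differed from the mean of the 5 other stages for all 13 mRNAs, by a log2 difference of -2.59 (COX1) to -4.62 (ND5), and all 13 adjusted p-values of edgeR were under 0.05, where 0.249% of all genes were called lower than the other stages. Without the gradient as a block, 7 of the 13 differences were called, and 8 were called without blastocyst gradient A or without gradient B. From morulae the blastocyst ratio was not distinguishable: edgeR, DESeq2 and limma called 0 of the 13, and 0 had an unadjusted p under 0.05.

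**Figure D3:**
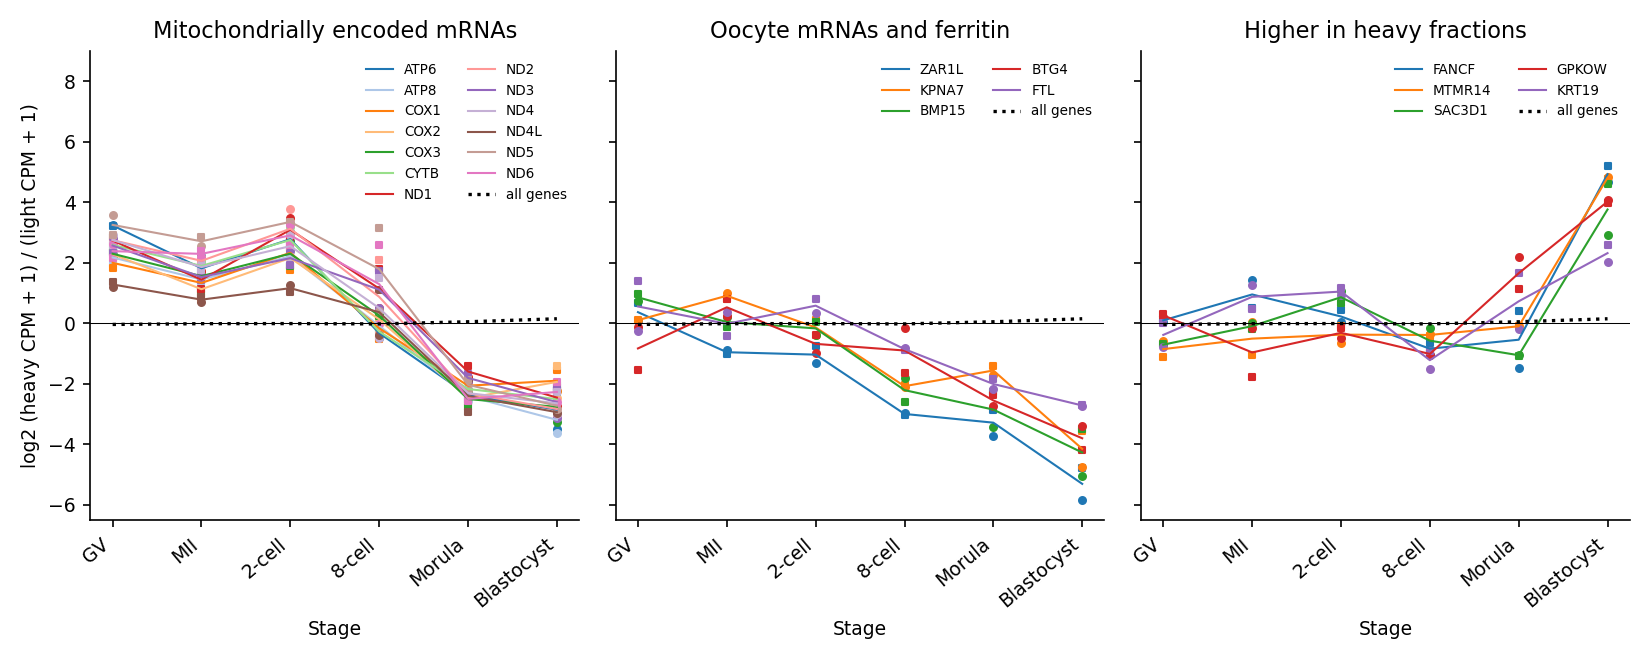
Log2 of (heavy CPM + 1)/(light CPM + 1) by stage; circles and squares are gradients A and B, coloured lines join the means of a gene and the dotted black line is the median of all genes at 1 CPM or more in blastocysts. Left, the 13 mitochondrially encoded mRNAs cross from the heavy to the light side between 2-cell embryos and morulae; middle, 4 oocyte mRNAs and FTL; right, 5 genes higher in heavy fractions of blastocysts.

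Nuclear genes for mitochondrial proteins did not share that position in blastocysts. Of 77 genes for proteins of the mitochondrial ribosome, 52 were higher in the heavy pool of both gradients and 4 in the light pool of both, that is 67.5% and 5.19%, where 35.1% and 25% of all genes at 1 CPM or more were. Their median log2 ratio was 0.63, and 1 was called. That gene, MRPL28, was at 283 and 182 CPM in the light pools of gradients A and B and at 1105 and 721 CPM in the heavy pools, a log2 ratio of 1.97 ± 0.40 (adjusted p = 0.0476). Every heavy library was above every light library, an order that 3.47% of genes at 1 CPM or more showed. Of the 76 nuclear-encoded subunits of oxidative phosphorylation, 57 (75%) were higher in the heavy pool of both gradients and 7 in the light pool of both, with a median of 0.68. None of them was called by edgeR, 22 had an unadjusted p under 0.05 toward heavy and 0 toward light, and DESeq2 called 5. Over all 11171 genes at 1 CPM or more, the unadjusted p was under 0.05 for 10.6% toward heavy and 6.11% toward light, and DESeq2 called 877 and 647 genes; the counts of other lists below are to be read against these shares. Highly expressed subunits were among the flat ones: COX6B1 had a log2 ratio of -0.05 ± 0.48 and COX5B one of 0.45 ± 0.45. The median ratio of these lists kept its sign under all 20 alternatives. Their median difference from the mean of the 5 other stages was 0.18 (mitochondrial ribosome) and -0.40 (oxidative phosphorylation), against 0.25 for all genes. None of these differences was called by edgeR. At an unadjusted p under 0.05, 1 and 14 were lower and 7 and 3 higher, against 606 lower and 1099 higher of all 11171 genes.

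Genes whose products act in the oocyte were at low levels in blastocysts and most of them were in the light fractions. Of 17 oocyte genes tested, 13 reached 1 CPM, and 8 of those were called toward light: BMP15, a growth factor secreted by the oocyte; ZP2 and ZP4 of the zona pellucida; NOBOX, an oocyte transcription factor; MOS, a kinase of meiosis; KPNA7, an importin; BTG4, which leads a deadenylase to maternal mRNAs; and PADI6 of the subcortical complex. KPNA7 was at 151 and 124 CPM in the light pools and at 4.63 and 9.71 CPM in the heavy pools, a log2 ratio of -4.34 ± 0.38 (adjusted p = 0.00121). BMP15 was at 155 and 68.0 CPM in light pools and at 3.74 and 5.11 CPM in heavy pools (-4.55 ± 0.51, adjusted p = 0.00476). For both, the 6 light libraries lay above the 6 heavy ones, although for KPNA7 the gap was between 12.41 and 12.38 CPM. Such an order was shown by 1.17% of genes at 1 CPM or more.

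The calls on oocyte genes were not all of equal weight. ZP4 was at 56.1 CPM in the light pool of gradient A and had no count in the other 3 pools, and ZP2 was at 45.5 CPM in the light pool of gradient B against 0.82 CPM in that of gradient A. BTG4 was at 72.8 and 104 CPM in the light pools and at 6.01 and 4.73 CPM in the heavy pools (log2 ratio -4.03 ± 0.51, adjusted p = 0.00743). OOEP, also of the subcortical complex, was not called, with a log2 ratio of 0.89 ± 0.39. On the log2(CPM + 1) scale the median ratio of the 13 genes was -1.69 in gradient A and -1.59 in gradient B, and the median of the fitted log2 ratios was -4.25, with a range of -4.97 to -2.58 over the alternatives. With blastocyst pools alone 1 of the 8 calls remained, that of KPNA7. Blastocysts differed from the mean of the other stages for BMP15 (log2 difference -3.66 ± 0.52), KPNA7 (-3.79 ± 0.39) and BTG4 (-3.13 ± 0.52), with adjusted p-values of 0.0128, 0.0032 and 0.0297. The position on the light side was not particular to blastocysts: the median ratio of the 13 genes, on the log2(CPM + 1) scale, was -1.49 and -2.03 in gradients A and B of 8-cell embryos, with all 13 higher in the light pool, and -1.70 and -1.95 in those of morulae. Against morulae edgeR called 0 of the 13, with 7 at an unadjusted p under 0.05 and 3 called by DESeq2; the adjusted p was 0.428 for BMP15, 0.0552 for KPNA7 and 0.502 for BTG4. ZAR1L, a relative of the oocyte RNA-binding protein ZAR1, was at 79.8 and 75.8 CPM in light pools and at 0.42 and 1.80 CPM in heavy pools, a log2 ratio of -6.37 ± 0.58 (adjusted p = 0.00133). ZAR1L was at 74.1 and 48.5 CPM in F3 and at 127 and 101 CPM in F4, and at 22.1 CPM or less in every later fraction.

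Markers of other cells that a batch of embryos could carry were compared on the same scale. The 8 defining oocyte markers together were at 292 and 227 CPM in the light pools and at 114 and 127 CPM in the heavy pools, and none of them was at 0 in all 16 libraries. The 6 cumulus cell markers, by contrast, summed to 0 to 70.7 CPM over the libraries, at 11.8 and 51.1 CPM in the light pools and 6.90 and 3.18 CPM in the heavy pools, with 1 of the 6 at 0 throughout. Sperm markers summed to 0 to 16.3 CPM. The embryos had been selected under the microscope as Grade 1, and the part of RNA from other cells in the position of oocyte mRNAs was not tested.

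Ferritin mRNAs were among the most abundant of the light pools. FTL, the light chain of the iron storage protein, was at 37404 and 52050 CPM in the light pools of gradients A and B and at 5677 and 7952 CPM in the heavy pools. That is a log2 ratio of -2.72 ± 0.38 (adjusted p = 0.0114). Every light library was above every heavy library, as for 1.17% of genes at 1 CPM or more. FTH1, the heavy chain, was at 26266 and 54148 CPM in light pools and at 8459 and 11469 CPM in heavy pools (-1.94 ± 0.37, adjusted p = 0.0403). FTL and FTH1 mRNAs carry a known iron-responsive element before the reading frame. Of the other 13 genes of iron storage and uptake at 1 CPM or more, edgeR called 0 and DESeq2 called 1 toward heavy and 1 toward light, the numbers that also had an unadjusted p under 0.05. PCBP2, an RNA-binding protein that also delivers iron to ferritin, had a log2 ratio of -1.44 ± 0.46 (adjusted p = 0.176). Both ferritin calls were also made with blastocyst pools alone, and neither was made without gradient A, without gradient B or without the gradient as a block. For FTL the ratio was lower than the mean of the other stages (difference -2.37 ± 0.41, adjusted p = 0.0323), and for FTH1 that difference was -1.31 ± 0.39 (adjusted p = 0.181). In morulae the ratio of FTL was -2.16 and -1.86, against -2.72 and -2.71 in blastocysts on the same scale, and the difference from morulae was -0.71 ± 0.51 (adjusted p = 0.77).

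The mRNAs of cytosolic ribosomal proteins leaned slightly toward the light fractions. Their median log2 ratio was -0.14, with 41 of 76 higher in the light pool of both gradients and 17 in the heavy pool of both. These shares were 53.9% and 22.4%, where 25% and 35.1% of all genes at 1 CPM or more were. The single called gene was RPLP0, of the ribosomal stalk, at 11759 and 16957 CPM in light pools and at 4072 and 5215 CPM in heavy pools (log2 ratio -1.62 ± 0.32, adjusted p = 0.0432). Of all genes at 1 CPM or more, 0.859% were called toward light. At an unadjusted p under 0.05, 3 of the 76 (3.95%) went toward light, below the 6.11% of all genes. Toward heavy 1 (1.32%) did, against 10.6% of all genes. RPS2 had a log2 ratio of -0.93 ± 0.34 (adjusted p = 0.23), and RPL8 one of 0.16 ± 0.42. Other mRNAs with a terminal oligopyrimidine start had a median of 0.07, and EEF1A1 among them was at 5082 and 5988 CPM in light pools and at 5323 and 6579 CPM in heavy pools. Initiation factors had a median of -0.06, and 0 of 31 were called by edgeR or DESeq2, with 1 at an unadjusted p under 0.05. The sign of the medians of these 3 lists was not stable over the alternatives: it was kept in 18, 14 and 12 of 20.

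**Figure D4:**
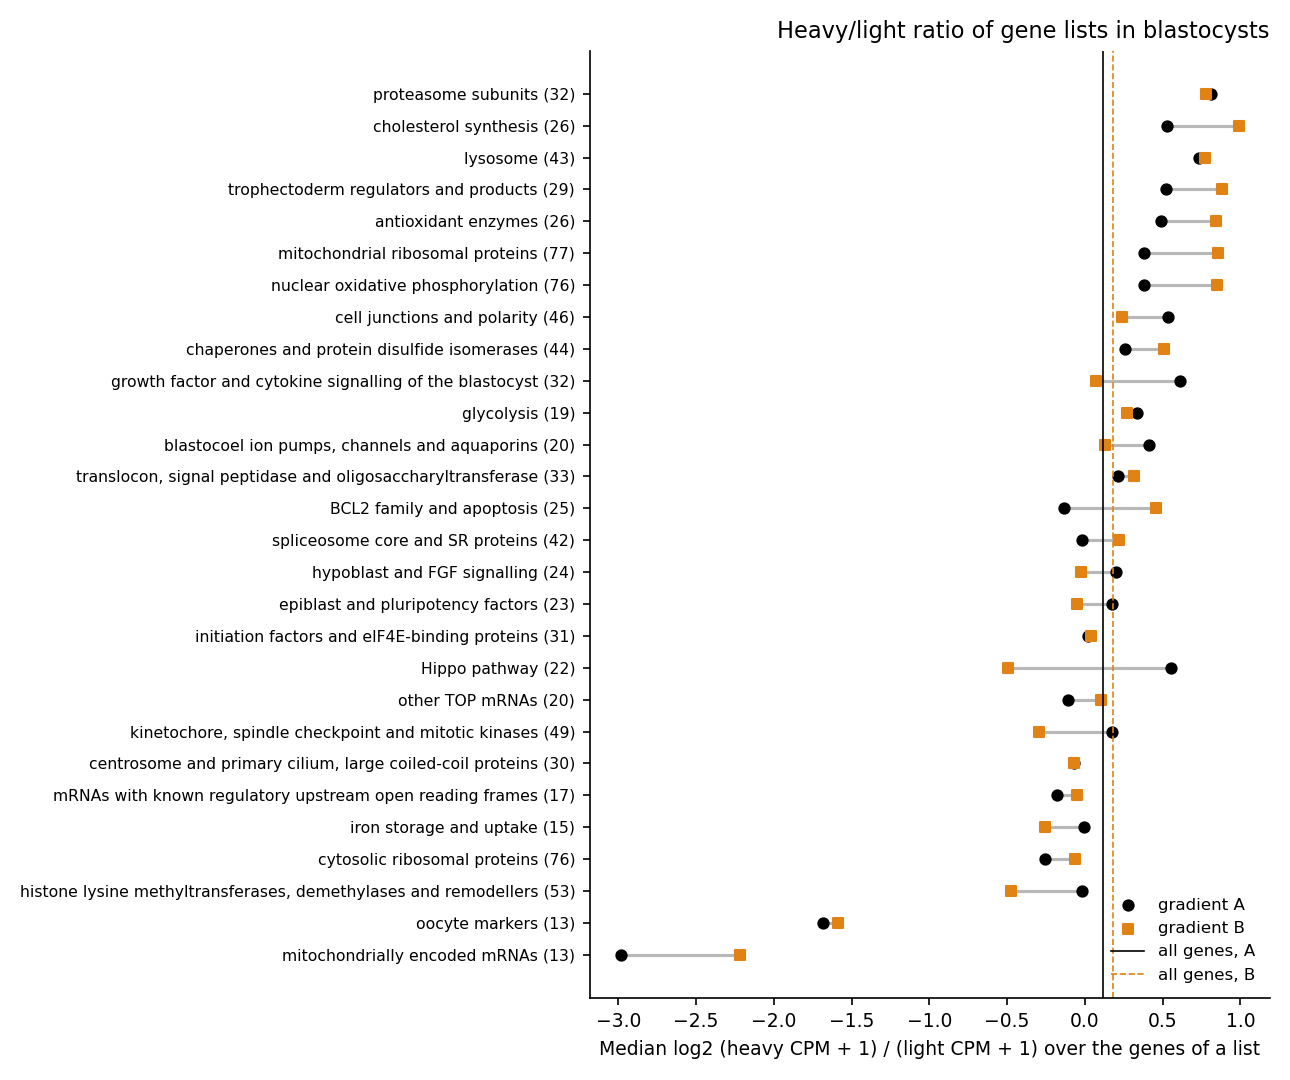
Median log2 of (heavy CPM + 1)/(light CPM + 1) over the genes of each list, in gradient A (circles) and gradient B (squares), with the number of genes at 1 CPM or more in brackets; vertical lines are the medians of all genes. Mitochondrially encoded mRNAs (-2.98 and -2.22) and oocyte genes (-1.69 and -1.59) lie far on the light side, and proteasome (0.81 and 0.78), lysosome (0.73 and 0.77) and cholesterol synthesis genes (0.53 and 0.99) are among several lists on the heavy side.

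The genes with the largest changes toward heavy fractions were nearly absent from the light ones. MTMR14 was at 3.17 and 1.94 CPM in the light pools of gradients A and B and at 118 and 79.2 CPM in the heavy pools, a log2 ratio of 5.28 ± 0.46 (adjusted p = 0.00121). GPKOW was at 6.34 and 5.74 CPM in light pools and at 122 and 104 CPM in heavy pools (4.23 ± 0.51, adjusted p = 0.00625). PREB was at 5.52 and 7.06 CPM in light pools and at 171 and 91.6 CPM in heavy pools (4.32 ± 0.82, adjusted p = 0.0387). For these 3 genes all 6 heavy libraries lay above all 6 light libraries, an order that 3.47% of genes at 1 CPM or more showed. FANCF, a member of the Fanconi anaemia core complex, was at 0.45 and 0.53 CPM in light pools and at 36.0 and 54.4 CPM in heavy pools (6.49 ± 0.66, adjusted p = 0.00295). DNTTIP1, a subunit of a histone deacetylase complex, had a log2 ratio of 6.11 ± 1.0, and WDR61, a part of the complex that helps the exosome degrade mRNA, one of 4.17 ± 0.64.

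Some of the same group had only a few reads in the light pools. SMPD2, a neutral sphingomyelinase, had 2 counts in the light pools against 1553 in the heavy ones, a ratio of 365 with an exact 95% counting interval of 101 to 3013. SMTNL2, a smoothelin-like protein, had 3 counts against 1450, a ratio of 227 (interval 77.5 to 1102). These intervals cover counting error only. SAC3D1, EYA3, CDK10 and TMEM39A were called as well, with log2 ratios of 4.25, 3.95, 3.91 and 4.28 and standard errors of 0.66 to 0.89. TMEM39A, for example, was at 0.18 and 2.91 CPM in the light pools of gradients A and B and at 21.5 and 20.3 CPM in the heavy pools. With blastocyst pools alone, none of SMPD2, SMTNL2, FANCF, DNTTIP1, WDR61, SAC3D1, EYA3, CDK10 and TMEM39A was called, and their adjusted p-values lay between 0.0716 and 0.376.

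On the light side, the rule for named genes also gave 8 genes outside the oocyte list, ZAR1L aside. NR3C2, the mineralocorticoid receptor, was at 79.9 and 50.1 CPM in the light pools and at 2.27 and 2.81 CPM in the heavy pools (log2 ratio -4.64 ± 0.63, adjusted p = 0.00857). PER1, a repressor of the circadian clock, was at 139 and 98.0 CPM in light pools and at 3.45 and 9.38 CPM in heavy pools (-4.34 ± 0.63, adjusted p = 0.0123). PER1 peaked in F5 of both gradients, at 184 and 142 CPM, and was at 5.13 and 1.45 CPM in F3, whereas NR3C2 was highest in F4 of gradient A and in F3 of gradient B. SAXO1, RASD2, TMEM145 and GJC1 had log2 ratios between -6.08 and -4.45. TLCD4 had no count in either heavy pool and 19.6 and 22.1 CPM in the light pools, at least 165-fold lower in heavy pools with a floor of 3 counts per pool. ABLIM3 had 549 counts in light pools and 1 in heavy pools, a ratio of 1169 with a counting interval of 209 to 46268. With blastocyst pools alone, PER1, ABLIM3 and SAXO1 were not called by edgeR, with adjusted p-values of 0.0624, 0.102 and 0.127. None of the 8 genes was among those called in all 3 fits.

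Of the trophectoderm genes, the keratin mRNA KRT19 was called toward heavy fractions. KRT19 was at 299 and 175 CPM in the light pools of gradients A and B and at 1231 and 1063 CPM in the heavy pools, a log2 ratio of 2.32 ± 0.46 (adjusted p = 0.0461). The other keratins of this epithelium moved in the same direction without being called: KRT18 was at 2011 and 1920 CPM in light pools and at 9179 and 7002 CPM in heavy pools (2.03 ± 1.36, adjusted p = 0.589), and KRT8 at 2881 and 2132 CPM against 6909 and 4879 CPM (1.23 ± 0.41, adjusted p = 0.198). The error of KRT18 is that of the fit of all stages, not the spread between its 2 blastocyst gradients. In all 3 keratins the heavy libraries lay above the light libraries without overlap, an order that 3.47% of genes at 1 CPM or more showed. Of the transcription factors, GATA3 was at 113 and 145 CPM in light pools and at 49.1 and 60.9 CPM in heavy pools (-1.23 ± 0.75, adjusted p = 0.524), TFAP2C had a ratio of -1.17 ± 0.51 (adjusted p = 0.354) and CDX2 one of 0.90 ± 0.71; GATA3, TFAP2C and CDX2 are named after their values were seen. Over the 29 list members at 1 CPM or more, 14 were higher in the heavy pool of both gradients and 7 in the light pool of both, and the median was 0.70. These shares were 48.3% and 24.1%, where 35.1% and 25% of all genes at 1 CPM or more were. The fit of all stages called 1 of the 29, where 0.815% of all genes at 1 CPM or more were called toward heavy. Blastocyst pools alone called 2, where 0.108% and 0.242% of genes tested were called toward heavy and light. At an unadjusted p under 0.05, 3 of the 29 (10.3%) went toward heavy, near the 10.6% of all genes, and 0 toward light. The summed level of the 6 trophectoderm markers, most of it from KRT8 and KRT18, was 5319 and 4570 CPM in the light pools and 16291 and 12142 CPM in the heavy pools. Whether products and factors differed was not tested.

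Among genes of the inner cell mass, POU5F1, the pluripotency factor OCT4, was at 418 and 299 CPM in light pools and at 1199 and 1249 CPM in heavy pools (1.79 ± 0.50, adjusted p = 0.126). Its heavy libraries lay between 802 and 1160 CPM, above the light ones at 137 to 429 CPM. That order was shown by 3.47% of genes at 1 CPM or more. The median over 23 epiblast and pluripotency genes was 0.16, and 10 were higher in the heavy pool of both gradients and 9 in the light pool of both. APOA1, an apolipoprotein made by hypoblast, was at 74.6 and 79.4 CPM in light pools and at 657 and 824 CPM in heavy pools (3.26 ± 0.79, adjusted p = 0.0784). The median over 24 hypoblast and FGF signalling genes was 0.06. In the edgeR fit of all stages 0 genes of these lists were called. With blastocyst pools alone, 1 gene of the hypoblast list and 0 of the epiblast list were called. At an unadjusted p under 0.05, the fit of all stages gave 3 and 2 toward heavy in the epiblast and hypoblast lists. Toward light it gave 2 and 0, and DESeq2 called 4 and 2 in all. The shares toward heavy, 13.0% and 8.33%, were near the 10.6% of all genes.

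The mRNAs behind the epithelium and the cavity were not far from the other genes. Of 46 genes for cell junctions and polarity, 22 were higher in the heavy pool of both gradients and 12 in the light pool of both, with a median of 0.55. CLDN6, a claudin of tight junctions, was at 3887 and 3690 CPM in light pools and at 9075 and 7853 CPM in heavy pools (1.16 ± 0.63, adjusted p = 0.474), and CDH1, or E-cadherin, had a ratio of 0.28 ± 0.30. Ion pumps, channels and aquaporins had a median of 0.35 over 20 genes; ATP1B3, a subunit of the sodium pump, had a ratio of 0.80 ± 0.41. Neither list had a call in edgeR, with 4 and 1 genes at an unadjusted p under 0.05 toward heavy, 0 and 1 toward light, and 3 and 2 calls in DESeq2. The shares toward heavy, 8.70% and 5%, were below the 10.6% of all genes. In the Hippo pathway, which sets trophectoderm apart from inner cells, the kinase LATS2 was called: it had no count in the light pools and 11.1 and 3.48 CPM in the heavy ones, at least 27.3-fold higher. TEAD4 had a ratio of 0.13 ± 0.83, and the pathway's median was 0.56 in gradient A and -0.50 in gradient B. Growth factor and cytokine signalling genes had a median of 0.36 over 32 genes, and ERBB2, the most changed of those named, had a ratio of 1.71 ± 0.77 (adjusted p = 0.349).

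Protein degradation was a group on the heavy side. Among 32 proteasome subunits 22 were higher in the heavy pool of both gradients (68.8%) and 2 in the light pool of both, with a median log2 ratio of 0.81. That position was not particular to blastocysts. On the log2(CPM + 1) scale the medians were 0.81 and 0.78 in blastocysts, 1.52 and 1.35 in morulae and 1.08 and 1.35 in 8-cell embryos. PSMA5 was called, at 107 and 53.0 CPM in light pools and at 283 and 290 CPM in heavy pools (1.93 ± 0.38, adjusted p = 0.0442). PSMB4 had a ratio of 1.77 ± 0.47 (adjusted p = 0.105) and PSMA7 one of 0.29 ± 0.28. Lysosomal genes had a median of 1.03, with 29 of 43 higher in the heavy pool of both gradients and 3 in the light pool of both. The called gene there, NAGLU, which removes N-acetylglucosamine from heparan sulfate, had no count in light pools and 4.75 and 8.67 CPM in heavy pools, at least 25-fold higher. ATP6V0B of the proton pump had a ratio of 1.70 ± 0.49 (adjusted p = 0.138) and ATP6V1F one of -0.19 ± 0.37, and both are subunits of the same pump. Each list had 1 call in edgeR, where 0.815% of all genes at 1 CPM or more were called toward heavy. An unadjusted p under 0.05 toward heavy was found for 25% of the proteasome and 20.9% of the lysosomal genes, against 10.6% of all genes.

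Genes for lipid synthesis and redox defence leaned the same way without calls. Of 26 cholesterol synthesis genes, 19 were higher in the heavy pool of both gradients and 5 in the light pool of both (median 1.0); FDPS, which makes farnesyl diphosphate, had a ratio of 1.49 ± 0.42 (adjusted p = 0.13). Antioxidant enzymes had a median of 0.74, and 20 of 26 were higher in the heavy pool of both gradients; PRDX2 was at 7503 and 3734 CPM in light pools and at 10666 and 8786 CPM in heavy pools (0.87 ± 0.33, adjusted p = 0.247). Toward heavy, 8 and 6 genes of these lists (30.8% and 23.1%, against 10.6% of all genes) had an unadjusted p under 0.05 and DESeq2 called 3 and 5, against 1 and 1 toward light and DESeq2 calls of 0 and 1. Glycolytic genes had a median of 0.55 over 19 genes, but the most abundant, GAPDH, had a ratio of -0.17 ± 0.49. Chaperones and disulfide isomerases had a median of 0.49, and HSPA8 a ratio of 0.03 ± 0.38. Of the 33 translocon, signal peptidase and oligosaccharyltransferase genes (median 0.31), TUSC3 was called at a level of 0 CPM in light pools and 0.67 and 3.52 CPM in heavy pools.

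Genes of cell division, chromatin and the centrosome had medians below the 0.23 of all genes, and 1 of them was called. AURKA, a kinase of the mitotic spindle, was called toward light, at 376 and 617 CPM in light pools and at 149 and 191 CPM in heavy pools (-1.51 ± 0.31, adjusted p = 0.0476). CCNB1, the mitotic cyclin, had a ratio of -1.08 ± 0.33 (adjusted p = 0.162) and SPC24 of the kinetochore one of 1.17 ± 0.47 (adjusted p = 0.284). The median over the 49 genes of kinetochore, checkpoint and mitotic kinases was -0.05, with its sign kept in 12 of 20 alternatives. Of these 49 genes 1 was called, where 0.859% of all genes at 1 CPM or more were called toward light. At an unadjusted p under 0.05, 6 (12.2%) went toward heavy and 4 (8.16%) toward light, against 10.6% and 6.11% of all genes. Histone methyltransferases, demethylases and remodellers had a median of -0.26, with 23 of 53 higher in the light pool of both gradients and 15 in the heavy pool of both. ARID1A, a subunit of the BAF remodelling complex, was at 179 and 314 CPM in light pools and at 39.8 and 65.7 CPM in heavy pools (-2.21 ± 0.56, adjusted p = 0.0901). Centrosomal and coiled-coil proteins had a median of -0.06, spliceosome genes 0.14, genes of the BCL2 family and apoptosis 0.13, and mRNAs with known upstream open reading frames -0.08, among them ATF4 at -0.69 ± 0.45. None of the genes of these last 5 lists was called by edgeR; at an unadjusted p under 0.05 there were 2, 1, 2, 1 and 1 toward light and 0, 0, 2, 2 and 0 toward heavy, and DESeq2 called 3, 2, 2, 2 and 0. These shares were 3.33% to 5.88% toward light, below the 6.11% of all genes, and 0% to 8% toward heavy, below the 10.6%.

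Over the 8 fractions, the called genes differed in where the change fell. USP36 declined in steps, from 369 and 434 CPM in F3 of gradients A and B to 74.0 and 124 CPM in F6 and 5.84 and 24.9 CPM in F10. COX1 was at 43519 CPM or more through F5 in both gradients and at 9075 and 13031 CPM in F10. FTL was lost within the light fractions, from 50934 and 62033 CPM in F3 to 14796 and 20468 CPM in F5, and to 4972 and 5936 CPM in F10. On the heavy side, KRT19 climbed from 57.1 and 132 CPM in F3 to 1426 and 1061 CPM in F10. MRPL28 had reached 401 and 233 CPM by F5 and was at 1041 and 441 CPM in F10. MTMR14 was at 72.3 CPM in F6 of gradient A and at 0 in F6 of gradient B, and from F8 on it was at 37.3 CPM or more in both.

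A slope over the 8 fractions, fitted with edgeR in the 16 single libraries with the gradient as a block, gave 289 genes rising toward heavy (2.78% of 10380 tested) and 203 falling (1.96%). Fractions of a gradient are not independent replicates, so these p-values are too small for a statement about embryos. Of the genes called by the pools, 29 of the 95 rose and 44 of the 100 fell in this fit. KRT18, KRT8, POU5F1 and APOA1, which the pools did not call, had slopes of 0.39, 0.23, 0.33 and 0.67 log2 units per fraction. All 4 passed in this fit, but it adds no replicate gradient, so they stay uncalled. Slopes of the other uncalled genes named are not given here.

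**Figure D5:**
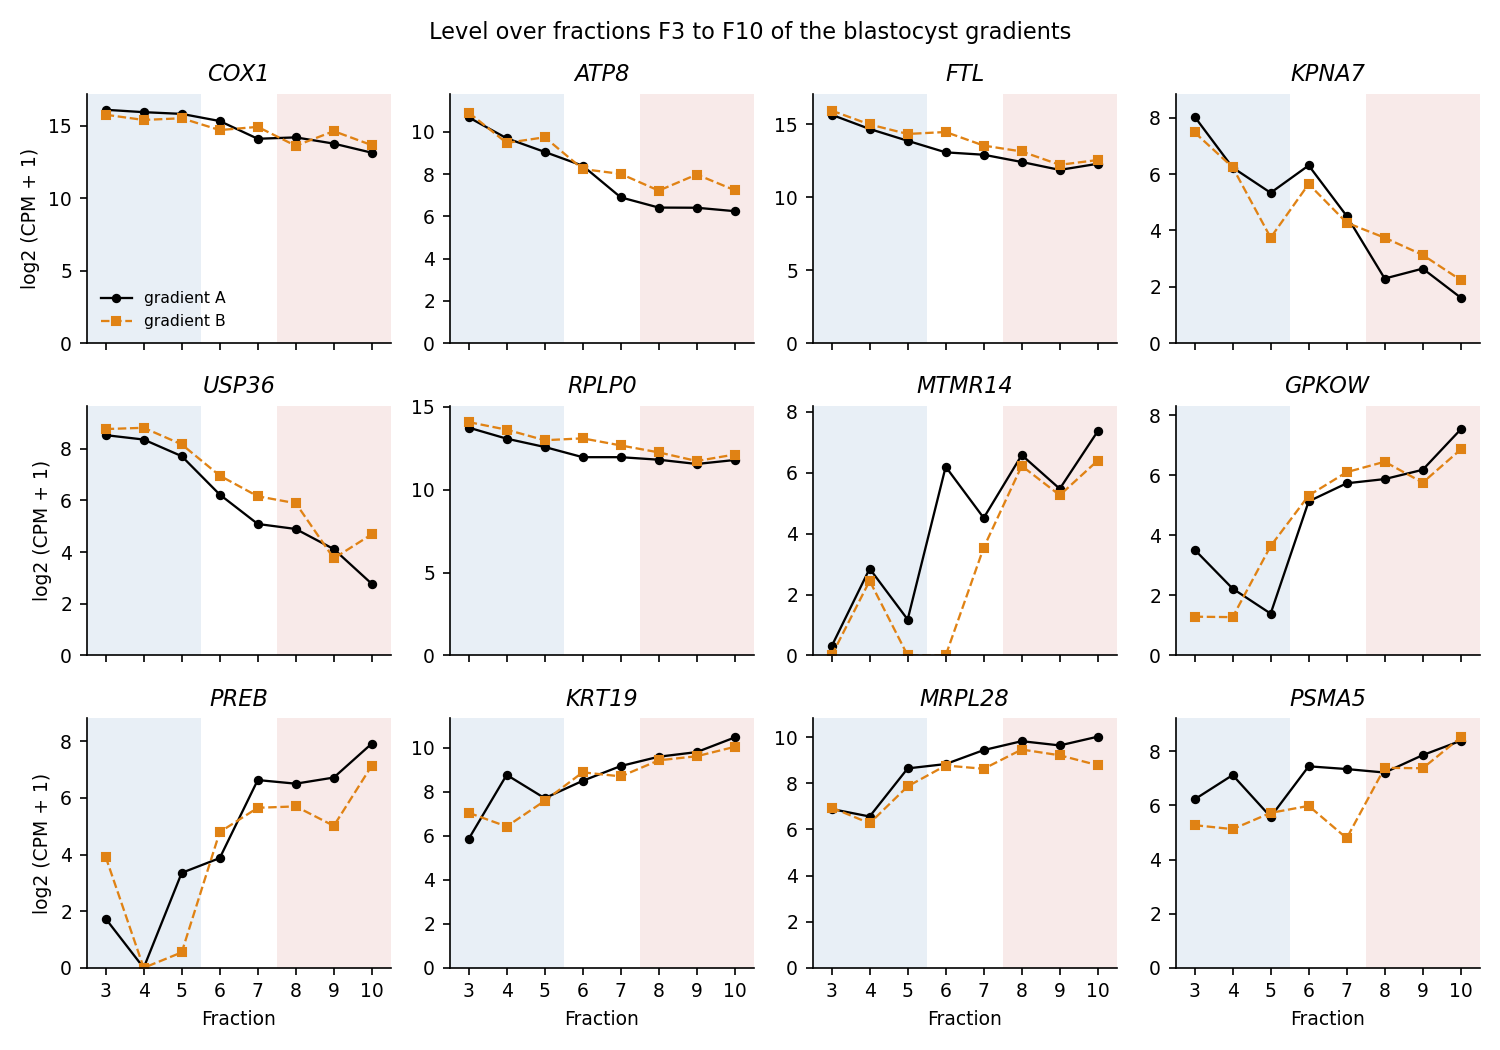
Level of 12 genes, as log2(CPM + 1), in each fraction from F3 to F10 of gradients A (black circles) and B (orange squares, dashed); blue and red shading mark the light and heavy fractions. COX1, ATP8, FTL, KPNA7, USP36 and RPLP0 fall across the gradient, and MTMR14, GPKOW, PREB, KRT19, MRPL28 and PSMA5 rise.

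The blastocyst was then compared with the other stages by the test of the difference itself. The ratio of heavy to light was higher in blastocysts than the mean of the 5 other stages for 64 genes (0.43% of genes tested) and lower for 37 (0.249%). Of the genes called toward heavy within blastocysts, 48 of 95 also differed from the other stages in the same direction, and of those called toward light 36 of 100 did; the contrasts share the blastocyst pools. MTMR14 had a log2 ratio of 4.84 and 4.77 in the blastocyst gradients A and B, and between -1.11 and 0.03 in the 10 gradients of the other stages, a difference of 5.73 ± 0.49 (adjusted p = 0.00271). FANCF was at 4.67 and 5.18 in blastocysts and between -1.48 and 1.41 elsewhere (difference 6.51 ± 0.69, adjusted p = 0.0032). GPKOW was at 4.07 and 3.97 in blastocysts, at 2.17 and 1.13 in morulae and between -1.78 and 0.31 in the earlier stages (difference 4.30 ± 0.53, adjusted p = 0.00701).

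Compared with morulae alone, the stage before, the ratio was higher in blastocysts for 31 genes (0.208%) and lower for 3 (0.0202%). The 4 genes at 10 CPM or more that met the rule were FANCF, MTMR14, SAC3D1 and BCL7B, a subunit of the BAF complex, and all were higher in blastocysts. BCL7B had a ratio of 1.37 and 1.54 in blastocysts and of -1.51 and -1.64 in morulae, a log2 difference of 3.11 ± 0.50 (adjusted p = 0.0412). SAC3D1, a centrosomal protein, was at 2.93 and 4.59 in blastocysts and at -1.04 and -1.07 in morulae (difference 5.32 ± 0.86, adjusted p = 0.0412). With the 8-cell, morula and blastocyst pools alone, edgeR called 0 genes in this contrast, and 578 of the 13728 tested had an unadjusted p under 0.05, fewer than the 5% of genes that evenly spread p-values would give; limma, with all stages, called 45 higher and 7 lower, and DESeq2 687 higher and 302 lower.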

How the data were processed

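RNA of sucrose gradient fractions from bovine oocytes and embryos was sequenced by the authors with a Smart-seq kit and Nextera XT libraries, and quantified with Salmon on the Ensembl bovine annotation. The genome was named as ARS-UCD1.2 in the study and as UMD3.1 in the submitters' processing notes, which list Salmon and edgeR without versions. The authors deposited expected counts per gene symbol for 16706 genes and 138 libraries, without normalization; 11.7% of the values were not whole. Samples were assigned by the column names, which match the labels. Members and gene lists were chosen with earlier results of these data known.

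Counts of F3 to F5 and of F8 to F10 were summed within each gradient and rounded. All 24 pools (6 stages, 12 gradients) were fitted with edgeR 4.0.16 in R 4.3.3 (filterByExpr, TMM, glmQLFit, glmQLFTest), with the gradient as a block and a heavy effect per stage, which left 6 residual degrees of freedom, and p-values were adjusted by Benjamini-Hochberg over 14873 genes. Two-sided tests were used. The pairing of heavy and light pools comes from the labels, since both are fractions of the same lysate; the correlation of their deviations from the stage means was 0.031 in blastocysts and between -0.090 and 0.173 in the other stages. Ratios per gradient are log2(CPM + 1), and those of the fit carry a standard error. That error is the absolute log2 ratio divided by the square root of the F statistic, so it follows the test and was not estimated separately. Pool CPM and library CPM were scaled separately. Lists were described by counts and medians over members at 1 CPM or more. Named genes were the 12 largest called changes in each direction at 10 CPM or more with both gradients in the same direction, the 4 most abundant members of each list with all called members (in lists of at most 12 calls), and, for each contrast between stages, up to 5 of the largest called differences in each direction at 10 CPM or more, among genes with both blastocyst gradients on the same side of every other stage's mean or beyond both morula gradients. ABLIM3, whose difference from the other stages was -7.33 (adjusted p = 0.0297), was passed over by that last condition.

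Replicates are 2 gradients per stage, described as biological duplicates, so p-values measure the spread between gradients, taken over all stages in the main fit. Alternatives used DESeq2 1.42.0, limma 3.58.1, other scalings, filters, pools and samples, and thinning of libraries to 2363749 counts. The scripts were tested on simulated data. Of the genes tested, 14616 symbols matched the RefSeq table of bovine genes, which is of another build, so no coordinates are given. Transcriptome libraries and F1 and F2 were not used here, and protein length and noncoding RNAs were not analysed here.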

Additional observations from a re-analysis of the deposited data

Results flagged for a closer look

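The ratio of heavy to light fractions differed between blastocysts and the mean of the 5 other stages, by the test of that difference in the edgeR model with the gradient as a block, for the genes below. The log2 difference was 7.78 for SMTNL2 (adjusted p = 0.0438), which had 3 counts in the light pools of blastocysts, 6.51 for FANCF, 6.16 for DNTTIP1 (adjusted p = 0.0308), 5.73 for MTMR14 and 5.39 for TMEM39A (adjusted p = 0.0381). It was -4.76 for ZAR1L (adjusted p = 0.00573), -4.62 for ND5 (adjusted p = 0.00799), -4.50 for SAXO1 (adjusted p = 0.0413), -4.47 for ATP8 and -4.25 for ND2. These genes were chosen among those with both blastocyst gradients beyond the mean of each other stage, which leaves out ABLIM3 (-7.33, adjusted p = 0.0297).

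The difference from morulae was called for FANCF (7.04, adjusted p = 0.00871), MTMR14 (5.38, adjusted p = 0.00714), SAC3D1 (5.32) and BCL7B (3.11). With the 8-cell, morula and blastocyst pools alone none of these 4 differences was called, and their adjusted p-values were 0.0691, 0.0691, 0.17 and 0.807. No group of libraries had the 4 samples that a test for outlying samples needs.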

How the results depend on the processing

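Counts below are genes called toward heavy and toward light (95 and 100 as reported), then genes with a higher and a lower ratio than the 5 other stages (64 and 37), then than morulae (31 and 3). Without the replicate block they were 119 and 94, 76 and 32, and 60 and 7; 63 and 58 of the calls within blastocysts were shared. In blastocyst pools alone, 12 and 27. In the later 3 stages alone, chosen after seeing the data, 11 and 23, and 0 and 0 against morulae. DESeq2 gave 939 and 695, 1033 and 518, and 687 and 302; the likelihood ratio test of edgeR, which the study names, 925 and 532, 778 and 284, and 583 and 221; limma on fractions of equal weight 344 and 245, 258 and 101, and 45 and 7. Library totals without TMM gave 174 toward heavy and 5 lower than morulae. F6 to F10 against F3 to F5 gave 227 toward heavy, 134 higher than the other stages, and 80 and 12 against morulae; F9 and F10 against F3 and F4 gave 20 and 1 against morulae, and thinning 13 higher than morulae. Leaving out F3 gave 57 toward light and 5 lower than morulae. Leaving out F4 gave 147 toward heavy, 107 higher than the other stages and 9 lower than morulae; F5, 197, 171 and 59, and 56 higher than morulae; F8, 32 and 54, 30 higher than the other stages, and 19 and 5 against morulae; F9, 42 toward heavy, 30 higher than the other stages and 19 higher than morulae; F10, 33 and 52, 29 and 24, and 5 lower than morulae. Slopes gave 289 and 203, and Spearman's rho 449 and 267. Leaving out 1 blastocyst gradient gave 43 to 155 toward heavy, 47 to 104 toward light, 63 to 162 and 31 to 58 against the other stages, and 45 to 131 and 8 to 27 against morulae, the lone gradient being assumed to vary like the others. The cause of these changes was not tested. Among the called genes named, ZP4 alone changed direction: its log2 ratio was -13.85 without gradient B and 1.89e-15, which is no difference, without gradient A.

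Of the 51 called genes named, 51 kept their call with DESeq2 and the likelihood ratio test, 33 without the block, 20 in blastocyst pools alone, 18 in the later stages, 17 without gradient A and 18 without gradient B. The alternatives on protein length were not run. Ratios of genes under 10 CPM are limited by depth.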
